A study of Mus musculus with 10 samples.

Results

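The genes described here are 10 components of the transforming growth factor beta (TGF-beta) pathway, measured by RNA sequencing in NIH3T3, a long-established fibroblast line from mouse embryos. They were chosen by symbol: the ligands Tgfb1, Tgfb2 and Tgfb3, the receptors Tgfbr1, Tgfbr2 and Tgfbr3, the signal transducer Smad3, the feedback genes Smad7 and Skil, and the induced matrix gene Tgfbi. Each of the 10 had a row of its own among the 14849 rows that name a gene, and all 10 met the filter on low values that left 12842 rows for testing. The 10 cultures, with 1 library each, were 4 clones stably overexpressing FOXP2-CPED1, 4 clones stably overexpressing FOXP2, and 2 controls, which were cells stably carrying the vector and parental cells. FOXP2 is a forkhead transcription factor, and the series title calls FOXP2-CPED1 a FOXP2 arrangement. The comparisons ask how the transcripts of fibroblasts change with either construct. Each of the 8 overexpressing cultures is a separate clone, while the labels call neither control a clone. Deriving a clone and carrying a construct therefore cannot be told apart here. For the introduced constructs, the species and the promoter are not given in the labels.

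TGF-beta ligands are secreted in a latent complex and bind, once released, to the type II receptor TGFBR2, which then activates the type I receptor TGFBR1. The activated type I receptor phosphorylates SMAD2 and SMAD3, which join SMAD4 and enter the nucleus to regulate target genes. Among these targets are genes for inhibitors of the pathway, such as Smad7 and Skil, and in fibroblasts many genes of the extracellular matrix and the contractile cytoskeleton.

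All values are RPKM, the reads of a gene divided by its transcript length and its library's mapped reads, so levels of different genes are compared per length. Summed RPKM per library lay between 794682 and 944602, and depth relative to the parental library lay between 0.914 and 1.32. Absolute depth is unknown. Of 10 fibroblast markers, 8 had a row of their own, and their summed RPKM ranged from 6377.5 to 8967.5 in FOXP2-CPED1 clones, from 5944.8 to 8326.1 in FOXP2 clones and from 9009.1 to 9115.6 in the controls. Fn1, for fibronectin, was at 958.2 RPKM or more in every culture, and Col1a1, for a collagen I chain, at 889.0 RPKM or more. Against the control over all clones 6 of the 8 were negative, with a median log2 fold change of -0.35 beside 0.010 over all rows and 0 past the limma threshold. Vim, for vimentin, was at most 2156.3 RPKM in FOXP2-CPED1 clones and 2420.5 RPKM in FOXP2 clones, against at least 2794.2 RPKM in the controls. Thy1, a fibroblast surface protein, was at most 134.8 RPKM in FOXP2-CPED1 clones and 131.2 RPKM in FOXP2 clones, against at least 148.7 RPKM in the controls. Both were thus below both controls in all 8 clones, as 6.38% of all rows were. Limma with weights on libraries, described next, called both over all clones, as it called 14.3% of all rows. Their part in the results was not tested. The summed markers of epithelial, skeletal muscle and adipocyte cells stayed at or under 5.67 RPKM in every culture, and neuronal markers had no row of their own. The largest such sum was that of the immune list, at 19.6 RPKM in a FOXP2 clone and from Cd14 alone, followed by 17.1 RPKM of endothelial Vwf and Cdh5 in a FOXP2 clone. The 2 mitochondrially encoded rows were listed at 0 in FOXP2-CPED1 clone 3 and in FOXP2 clones 2 and 4. In bulk cultures, fewer cells of a kind and less RNA per cell cannot be told apart.

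None of the 10 genes passed the threshold in any comparison, which was an adjusted p of 0.05 from limma, a linear model fitted to all rows tested with Benjamini-Hochberg adjustment. Between FOXP2-CPED1 clones and control 0.35% of all rows were called and 0 of the 10 genes, while 1 (Smad7) had an unadjusted limma p under 0.05, as did 7.28% of all rows. Between FOXP2 clones and control 0.436% of rows were called and 0 of the 10 genes, while 2 (Tgfb1 and Smad7) had an unadjusted limma p under 0.05, as did 8.52% of all rows. With all 8 clones set against the control, 0.537% of rows and 0 of the 10 genes were called, and 1 (Smad7) had an unadjusted limma p under 0.05, as did 9.1% of all rows. Between FOXP2-CPED1 and FOXP2 clones 0.0% of rows and 0 of the 10 genes were called, and 0 of the 10 had an unadjusted limma p under 0.05, as did 2.16% of all rows. The calls depend on the weighting of libraries. With weights that give less influence to libraries standing apart, limma called 1 of the 10 (Smad7) in FOXP2-CPED1 clones against control, beside 7.23% of all rows, and 3 (Smad7, Tgfb1 and Smad3) in FOXP2 clones against control, beside 16.3% of all rows. Over all clones the weighted fit called 2 (Smad7 and Smad3), beside 14.3% of all rows, and between the constructs it called 0, beside 0.0311%. Each of these was lower than in the control. Leaving out any 1 library called 0 of the 10 in every comparison.

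**Figure D1:**
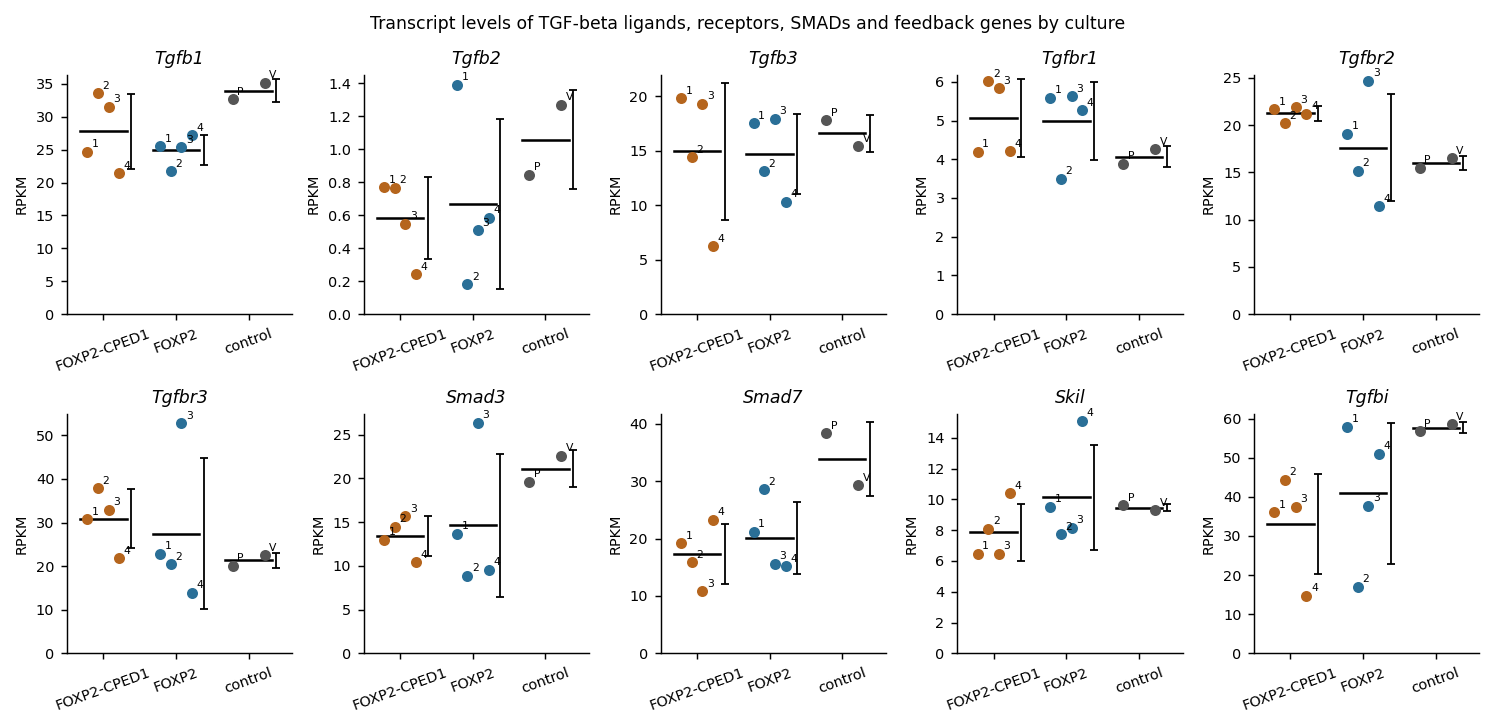
RPKM of the 10 genes in every culture, with FOXP2-CPED1 clones (orange, numbered 1 to 4), FOXP2 clones (blue, numbered 1 to 4) and controls (grey, P parental and V vector); horizontal lines are group means and bars are ± 1 SD. All 8 clones lie below both controls for Smad7, while for the other 9 genes the range of the clones overlaps that of the controls.

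Across the 10 cultures the mean levels ran from 41.1 RPKM for Tgfbi to 0.709 RPKM for Tgfb2. Tgfb1, at 27.9 RPKM, and Tgfbr3, at 27.6 RPKM, came next, and their ranges over the cultures overlapped. Smad7 averaged 21.8, Tgfbr2 18.8, Smad3 15.4 and Tgfb3 15.2 RPKM, again with overlapping ranges. Below these stood Skil at 9.09 RPKM and Tgfbr1 at 4.84 RPKM, and the highest Tgfbr1 value, 6.01 RPKM, was under the lowest Skil value, 6.47 RPKM. Thus the type II receptor and the co-receptor Tgfbr3 were each more abundant per length than the type I receptor in every culture, and Tgfb2 was the lowest of the 3 ligands in every culture.

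Among the ligands, Tgfb1 (ENSMUSG00000002603), the most abundant, was at 24.7, 33.6, 31.5 and 21.4 RPKM in FOXP2-CPED1 clones 1 to 4, at 25.5, 21.7, 25.4 and 27.2 RPKM in FOXP2 clones 1 to 4, and at 35.2 RPKM in vector and 32.7 RPKM in parental cells. All 4 FOXP2 clones were below both controls, whereas FOXP2-CPED1 clone 2 reached the control range. The log2 fold change against control, on the scale of log2(RPKM + 1), was -0.30 ± 0.19 (SE) in FOXP2-CPED1 clones (limma adjusted p = 0.808) and -0.43 ± 0.19 in FOXP2 clones (limma adjusted p = 0.556). By ratio of mean RPKM, the FOXP2 clones were at 0.735 of the control. An exact permutation test (two-sided, as are all here) gave p = 0.0667 for the FOXP2 clones, the smallest that 4 against 2 cultures allow.

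Tgfb3 (ENSMUSG00000021253) was at 19.8, 14.4, 19.3 and 6.23 RPKM in FOXP2-CPED1 clones 1 to 4, at 17.5, 13.1, 17.9 and 10.3 RPKM in FOXP2 clones 1 to 4, and at 15.4 RPKM in vector and 17.8 RPKM in parental cells. Clones of both constructs lay on either side of the controls, and clone 4 of each construct was the lowest of its group. Fold changes against control were -0.26 ± 0.39 (log2, SE) in FOXP2-CPED1 clones and -0.20 ± 0.39 in FOXP2 clones, with limma adjusted p = 0.932 and 0.934. Without FOXP2-CPED1 clone 4 the difference in FOXP2-CPED1 clones turned to 0.086. Tgfb2 (ENSMUSG00000039239), whose transcript level was low in these cells, was at 0.768, 0.764, 0.548 and 0.241 RPKM in FOXP2-CPED1 clones 1 to 4. It was at 1.39, 0.179, 0.507 and 0.585 RPKM in FOXP2 clones 1 to 4, and at 1.27 RPKM in vector and 0.844 RPKM in parental cells. Every FOXP2-CPED1 clone was below both controls, but FOXP2 clone 1 was the highest of all 10 cultures. Its log2 fold changes were -0.39 ± 0.29 (SE) in FOXP2-CPED1 clones (limma adjusted p = 0.852) and -0.34 ± 0.29 in FOXP2 clones (limma adjusted p = 0.812), and at this level the added 1 RPKM shrinks any fold change.

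The receptors had positive but uncalled differences against control, and in FOXP2 clones those of Tgfbr2 and Tgfbr3 turned negative without FOXP2 clone 3, at -0.093 and -0.18 (log2). Tgfbr2 (ENSMUSG00000032440), the type II receptor that binds the ligand, was at 21.7, 20.2, 21.9 and 21.2 RPKM in FOXP2-CPED1 clones 1 to 4, at 19.1, 15.2, 24.7 and 11.4 RPKM in FOXP2 clones 1 to 4, and at 16.5 RPKM in vector and 15.5 RPKM in parental cells. The FOXP2-CPED1 clones were close together and all above both controls, whereas FOXP2 clones spread over both sides. Tgfbr2 averaged 21.3 ± 0.767 RPKM in FOXP2-CPED1 clones (SD, n = 4), 17.6 ± 5.66 RPKM in FOXP2 clones (SD, n = 4) and 16.0 ± 0.723 RPKM in the controls (SD, n = 2). The log2 fold change of FOXP2-CPED1 clones against control was 0.39 ± 0.24 (SE), with a 95% interval from -0.15 to 0.92 and limma adjusted p = 0.804, while an exact permutation test gave 0.0667, the smallest possible. In FOXP2 clones the log2 difference was 0.079 ± 0.24 (limma adjusted p = 0.961).

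Tgfbr1 (ENSMUSG00000007613), the type I receptor kinase, was at 4.19, 6.01, 5.84 and 4.21 RPKM in FOXP2-CPED1 clones 1 to 4, at 5.59, 3.50, 5.63 and 5.26 RPKM in FOXP2 clones 1 to 4, and at 4.26 RPKM in vector and 3.88 RPKM in parental cells. Of the 8 clones, 5 were above both controls and 1, FOXP2 clone 2, was below both. The log2 fold changes were 0.24 ± 0.21 (SE) in FOXP2-CPED1 clones and 0.23 ± 0.21 in FOXP2 clones, with limma adjusted p = 0.872 and 0.833. Tgfbr3 (ENSMUSG00000029287), betaglycan, a co-receptor that presents ligand to the type II receptor, was at 30.8, 37.9, 32.9 and 21.8 RPKM in FOXP2-CPED1 clones 1 to 4, at 22.8, 20.4, 52.8 and 13.9 RPKM in FOXP2 clones 1 to 4, and at 22.5 RPKM in vector and 20.1 RPKM in parental cells. FOXP2 clones 3 and 4 held the highest and the lowest value of all cultures, 3.8-fold apart, and 3 of 4 FOXP2-CPED1 clones exceeded both controls. The log2 fold changes of Tgfbr3 were 0.49 ± 0.42 (SE) in FOXP2-CPED1 clones (limma adjusted p = 0.872) and 0.18 ± 0.42 in FOXP2 clones (limma adjusted p = 0.943).

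Smad3 (ENSMUSG00000032402), the receptor-activated transducer, was at 13.0, 14.5, 15.7 and 10.4 RPKM in FOXP2-CPED1 clones 1 to 4, at 13.7, 8.86, 26.4 and 9.55 RPKM in FOXP2 clones 1 to 4, and at 22.6 RPKM in vector and 19.6 RPKM in parental cells. Of the 8 clones, 7 were below both controls, and the exception, FOXP2 clone 3, was above both. Smad3 averaged 13.4 ± 2.29 RPKM in FOXP2-CPED1 clones (SD, n = 4), 14.6 ± 8.12 RPKM in FOXP2 clones (SD, n = 4) and 21.1 ± 2.15 RPKM in the controls (SD, n = 2). The log2 fold change was -0.63 ± 0.36 (SE) in FOXP2-CPED1 clones (limma adjusted p = 0.767) and -0.62 ± 0.36 in FOXP2 clones (limma adjusted p = 0.704). The value in FOXP2 clones moved both ways with the libraries kept. It was -0.94 without FOXP2 clone 3 (limma adjusted p = 0.16). Without the 3 libraries whose mitochondrial rows are listed at 0, among them FOXP2 clones 2 and 4, it shrank to -0.138. With library weights, limma's adjusted p for Smad3 was 0.101 in FOXP2-CPED1 clones and 0.0317 in FOXP2 clones.

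The inhibitory SMAD gene was the only one of the 10 below both controls in all 8 clones. Smad7 (ENSMUSG00000025880), whose protein blocks the type I receptor and which TGF-beta itself induces, was at 19.2, 15.9, 10.8 and 23.3 RPKM in FOXP2-CPED1 clones 1 to 4, at 21.2, 28.6, 15.6 and 15.2 RPKM in FOXP2 clones 1 to 4, and at 29.3 RPKM in vector and 38.4 RPKM in parental cells. The FOXP2-CPED1 clones reached at most 23.3 RPKM, FOXP2 clone 2 was just under the vector culture, and the controls themselves differed, with vector at 0.764 of the parental level. Smad7 averaged 17.3 ± 5.27 RPKM in FOXP2-CPED1 clones (SD, n = 4), 20.2 ± 6.29 RPKM in FOXP2 clones (SD, n = 4) and 33.8 ± 6.40 RPKM in the controls (SD, n = 2). The log2 fold change was -0.96 ± 0.31 (SE) in FOXP2-CPED1 clones, with a 95% interval from -1.66 to -0.26 and a limma p of 0.0118 before and 0.442 after adjustment. In FOXP2 clones it was -0.75 ± 0.31 (SE), with a limma p of 0.0377 before and 0.538 after adjustment. Over all 8 clones it was -0.86 ± 0.29 (SE), or 0.554 of the control by ratio of means, with a limma p of 0.0135 before and 0.359 after adjustment. An exact permutation test over all 8 clones against 2 controls gave 0.0222, the smallest p that design allows, and 11.8% of all rows tested were likewise without overlap, with 6.38% of all rows on the lower side. With library weights, limma's adjusted p for Smad7 was 0.0140 in FOXP2-CPED1 clones, 0.0384 in FOXP2 clones and 0.0105 over all clones. Over the 18 alternatives of the comparison of all clones its log2 fold change ran from -1.05 to -0.67, and only the weighted fit passed the threshold. With all 8 clones below both controls, leaving out a library could not turn its sign.

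Skil (ENSMUSG00000027660), which encodes the SMAD corepressor SnoN and is also induced by TGF-beta, was at 6.47, 8.09, 6.47 and 10.4 RPKM in FOXP2-CPED1 clones 1 to 4, at 9.53, 7.73, 8.17 and 15.1 RPKM in FOXP2 clones 1 to 4, and at 9.30 RPKM in vector and 9.63 RPKM in parental cells. Unlike Smad7 it overlapped the controls with both constructs, and clone 4 was the highest of each construct. The log2 fold changes against control were -0.26 ± 0.26 (SE) in FOXP2-CPED1 clones (limma adjusted p = 0.888) and 0.044 ± 0.26 in FOXP2 clones (limma adjusted p = 0.982), which turned to -0.15 without FOXP2 clone 4.

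Tgfbi (ENSMUSG00000035493), a secreted matrix protein named for its induction by TGF-beta, was at 36.0, 44.3, 37.4 and 14.7 RPKM in FOXP2-CPED1 clones 1 to 4, at 57.9, 17.0, 37.7 and 51.0 RPKM in FOXP2 clones 1 to 4, and at 58.6 RPKM in vector and 56.7 RPKM in parental cells. The controls lay close together and 7 of 8 clones were below both, yet the clones spread 3.94-fold, and FOXP2 clone 1 was level with the controls. The log2 fold changes were -0.89 ± 0.50 (SE) in FOXP2-CPED1 clones, with a 95% interval from -2.0 to 0.23 and limma adjusted p = 0.767, and -0.62 ± 0.50 in FOXP2 clones (limma adjusted p = 0.810). A single clone carried much of each: without FOXP2-CPED1 clone 4 the value in FOXP2-CPED1 clones was -0.55, and without FOXP2 clone 2 the value in FOXP2 clones was -0.26.

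**Figure D2:**
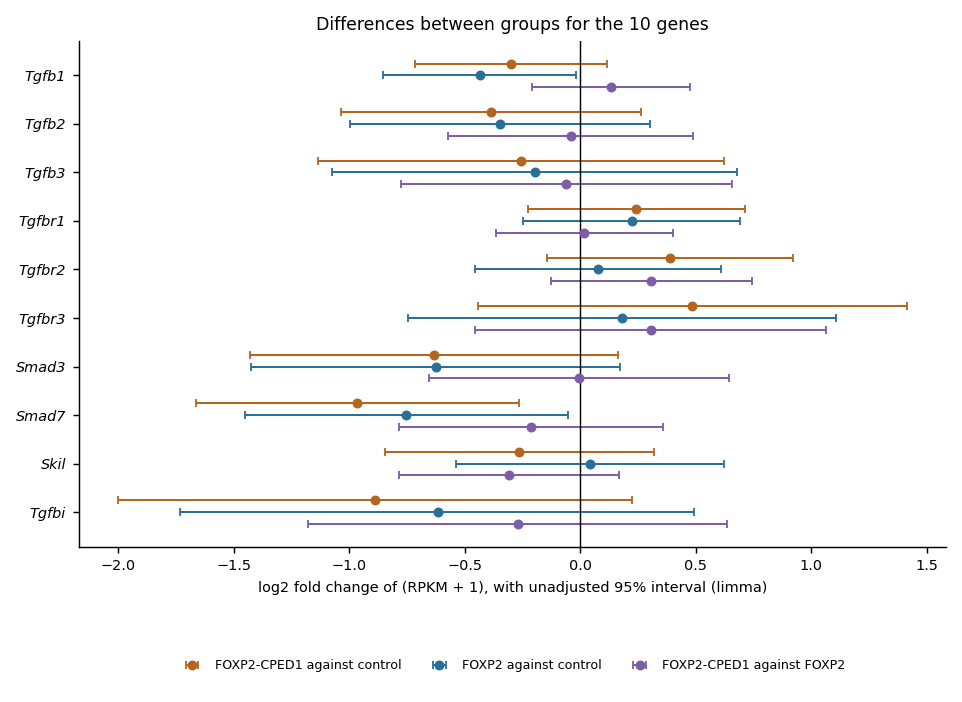
Log2 fold changes of (RPKM + 1) of the 10 genes from limma, with unadjusted 95% intervals, for FOXP2-CPED1 clones against control (orange), FOXP2 clones against control (blue) and FOXP2-CPED1 against FOXP2 clones (purple). Among the intervals against control, those of Smad7 with either construct and of Tgfb1 in FOXP2 clones do not reach 0, and no gene passed the adjusted threshold.

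Read as a list, the 10 genes gave a median log2 fold change of -0.28 in FOXP2-CPED1 clones against control, where the median of all rows was 0.002. Of the 10, 7 were negative, as were 49.7% of all rows. In FOXP2 clones against control the median was -0.27, beside 0.016 over all rows, and 6 of 10 were negative, as were 47.6% of all rows. The 2 comparisons share their controls. Groups did not overlap for 5 of 10 genes between FOXP2-CPED1 clones and control, with Tgfb2, Smad3, Smad7 and Tgfbi lower and Tgfbr2 higher, where 25.6% of all rows did not overlap, 13.3% lower and 12.2% higher. Between FOXP2 clones and control they did not overlap for 2 of 10, Tgfb1 and Smad7, both lower, beside 19.5% of all rows and 10.4% on the lower side. The list was not tested as a set.

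No difference between the constructs was detected for any of the 10 genes. The median log2 fold change of FOXP2-CPED1 against FOXP2 clones was -0.023, beside -0.011 over all rows. Groups overlapped for 10 of 10 genes, where 1.37% of all rows did not overlap. The intervals still leave room for differences in some genes: for Tgfbr2 the log2 fold change was 0.31 ± 0.20 (SE), with a 95% interval from -0.13 to 0.74, and limma adjusted p = 1.0. For Skil it was -0.31 ± 0.21 (SE), with an interval from -0.78 to 0.17, and for Smad7 -0.21 ± 0.26 with an interval from -0.78 to 0.36. The widest interval was that of Tgfbi, from -1.18 to 0.64, and the narrowest that of Tgfb1, from -0.21 to 0.47. The spread among clones of Tgfbr2 also differed by construct, with an SD of 0.767 RPKM in FOXP2-CPED1 clones and 5.66 RPKM in FOXP2 clones, a contrast that was not tested.

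Between vector and parental cells none of the 10 genes differed 2-fold, as 2.3% of all rows did, with 1 library each and no test. The ratio of vector to parental RPKM ran from 0.764 for Smad7 to 1.5 for the low-level Tgfb2.

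Variation between clones was large for several of the genes. Over the 8 clones the SD of log2(RPKM + 1) was 0.69 for Tgfbi, 0.58 for Tgfbr3, 0.52 for Tgfb3, 0.47 for Smad3 and 0.41 for Smad7, beside a median of 0.28 over all rows tested. Of the rows tested, 93.6% had a smaller SD than Tgfbi and 89.8% a smaller SD than Tgfbr3. Tgfb1 and Tgfbr1 varied least, with an SD of 0.22 and 0.23, and 34.4% and 38.2% of rows below them. No single clone stood apart in all genes. FOXP2 clone 3 was the highest of the 8 clones for Tgfbr2, Tgfbr3 and Smad3, and FOXP2 clone 2 was the lowest for Tgfb2, Tgfbr1 and Smad3 and the highest for Smad7. FOXP2-CPED1 clone 4 was the lowest for Tgfb1, Tgfb3 and Tgfbi, and FOXP2-CPED1 clone 3 for Smad7 and Skil.

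Some genes varied together across the clones. Of the 45 pairs among the 10 genes, 7 had an unadjusted exact permutation p under 0.05 for Pearson's r on log2(RPKM + 1). Of these 7, 5 were positive, and 0 remained after Benjamini-Hochberg adjustment. The share among pairs of all rows was not computed, so the count does not show a relation particular to these genes. The pair with the smallest p was Tgfbr3 and Smad3, with r = 0.892 (exact permutation p = 0.00345, adjusted 0.0852) and Spearman's rho = 0.929 (exact permutation p = 0.00223, adjusted 0.1) over 8 clones. Leaving out the 2 clones farthest from the median of Tgfbr3 gave r = 0.799, and within a construct r was 0.901 over FOXP2-CPED1 clones and 0.938 over FOXP2 clones, with 4 clones each. The highest Tgfbr3 and Smad3 values were both in FOXP2 clone 3. Tgfb2 and Tgfbi gave r = 0.855 (exact permutation p = 0.00568, adjusted 0.0852) and rho = 0.690 (exact permutation p = 0.0694, adjusted 0.312). For this pair r was 0.819 without the 2 farthest clones, 0.934 within FOXP2-CPED1 clones and 0.855 within FOXP2 clones. Tgfbr2 and Tgfbr3 gave r = 0.852 over all 8 clones (exact permutation p = 0.00432, adjusted 0.0852) and rho = 0.810 (exact permutation p = 0.0218, adjusted 0.245). That relation did not hold within FOXP2-CPED1 clones, where r was -0.335, beside 0.946 within FOXP2 clones.

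Over the 8 clones the ligand Tgfb1 went with its type I receptor and against the inhibitory SMAD, with neither relation past adjustment. Rows outside the 10 genes also followed Tgfb1, such as B4galt1, with r = 0.921 over the 10 cultures. Tgfb1 and Tgfbr1 gave r = 0.823 (exact permutation p = 0.0107, adjusted 0.121) and rho = 0.833 (exact permutation p = 0.0154, adjusted 0.245), with 0.798 without the 2 farthest clones, 0.954 within FOXP2-CPED1 clones and 0.890 within FOXP2 clones. Tgfb1 and Smad7 gave r = -0.813 (exact permutation p = 0.0158, adjusted 0.135) and rho = -0.738 (exact permutation p = 0.0458, adjusted 0.295), with -0.857 without the 2 farthest clones, -0.812 within FOXP2-CPED1 clones and -0.901 within FOXP2 clones. Clones with more Tgfb1 thus had less Smad7, although the clones as a group were below the controls in Smad7 and, on average, in Tgfb1. The remaining pairs with an unadjusted p under 0.05 were Tgfbr1 with Smad7, at r = -0.792, and Tgfbr1 with Tgfbi, at r = 0.779, both by exact permutation test. Since none of the 45 pairs passed the adjustment, these are descriptions of 8 clones.

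**Figure D3:**
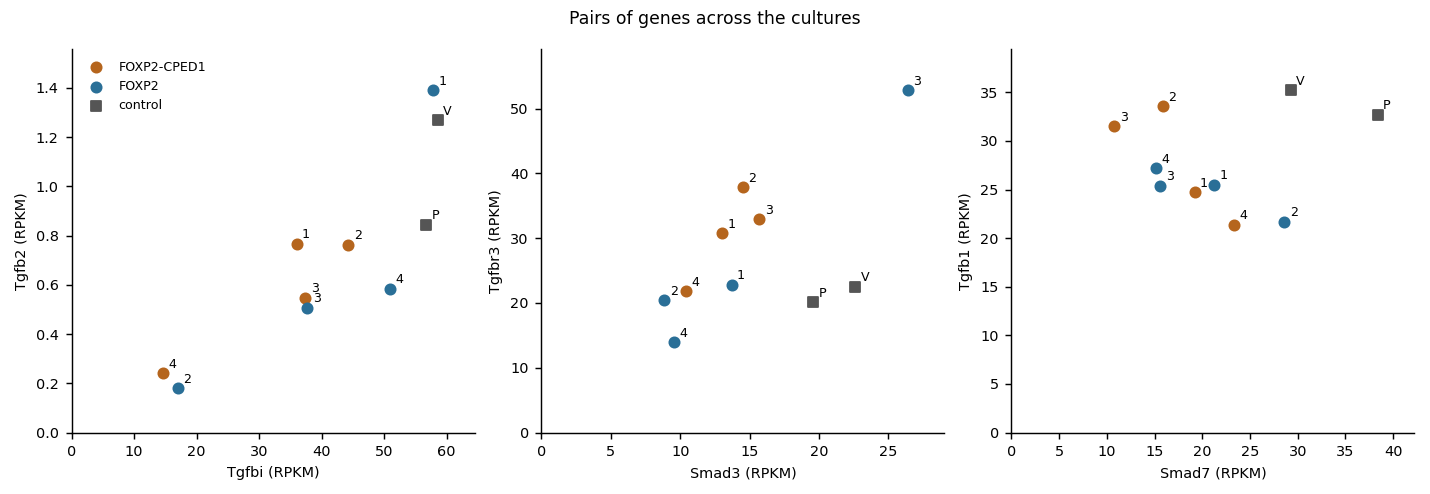
RPKM of 3 pairs of genes in each culture: Tgfb2 against Tgfbi (left), Tgfbr3 against Smad3 (middle) and Tgfb1 against Smad7 (right), with FOXP2-CPED1 clones in orange, FOXP2 clones in blue and controls as grey squares (P parental, V vector). Over the 8 clones Pearson's r on log2(RPKM + 1) was 0.855, 0.892 and -0.813 from left to right, and the controls lie off the line of the clones in the middle and right panels.

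The promoters of 2 pairs that varied together are shown for their sequence. RefSeq windows on GRCm38.p6, a later build than the mm9 genome of the values, were given for 6 of the 10 genes, each with 250 bases before a transcription start and 50 bases from it on. The windows, printed on the strand of the gene, are chr1:186705940-186706239 on the minus strand for Tgfb2, at a start that is not the outermost annotated, chr13:56609336-56609635 on the plus strand for Tgfbi, chr7:25686752-25687051 on the plus strand for Tgfb1, and chr4:47352972-47353271 on the plus strand for Tgfbr1. Capitals mark the SMAD element CAGAC and the GC-rich SMAD motif GGCGC on either strand (GTCTG and GCGCC on the other), where a run of GGCGCC holds both orientations overlapping.
Tgfb2: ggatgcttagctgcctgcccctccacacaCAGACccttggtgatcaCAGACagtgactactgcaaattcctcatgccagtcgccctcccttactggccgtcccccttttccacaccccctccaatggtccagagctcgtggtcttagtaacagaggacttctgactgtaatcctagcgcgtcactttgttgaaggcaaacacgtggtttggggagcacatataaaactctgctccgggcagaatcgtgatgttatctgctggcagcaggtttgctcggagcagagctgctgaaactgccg
Tgfbi: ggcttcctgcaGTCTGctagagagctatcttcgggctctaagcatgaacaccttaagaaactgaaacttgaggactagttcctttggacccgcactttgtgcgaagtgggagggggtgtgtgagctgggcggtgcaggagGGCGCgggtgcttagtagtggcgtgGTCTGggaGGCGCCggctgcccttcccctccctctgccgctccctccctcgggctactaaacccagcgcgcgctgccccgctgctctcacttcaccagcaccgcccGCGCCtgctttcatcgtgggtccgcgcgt
Tgfb1: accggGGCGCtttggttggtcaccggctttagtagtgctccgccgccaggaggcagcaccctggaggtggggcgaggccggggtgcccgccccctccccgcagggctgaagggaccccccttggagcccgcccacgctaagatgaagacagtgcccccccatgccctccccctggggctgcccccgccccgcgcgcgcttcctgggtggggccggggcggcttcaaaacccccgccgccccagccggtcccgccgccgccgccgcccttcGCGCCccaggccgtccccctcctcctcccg
Tgfbr1: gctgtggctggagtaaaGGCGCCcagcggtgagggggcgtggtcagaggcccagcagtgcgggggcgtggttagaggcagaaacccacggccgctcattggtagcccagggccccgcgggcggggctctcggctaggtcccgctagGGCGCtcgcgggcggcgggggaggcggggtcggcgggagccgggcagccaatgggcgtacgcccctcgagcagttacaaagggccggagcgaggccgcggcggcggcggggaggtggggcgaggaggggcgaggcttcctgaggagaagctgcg
With the start base counted as 0, CAGAC began at -221 and -204 in the Tgfb2 window, and on the other strand at -239 and -85 in the Tgfbi window. It was in neither the Tgfb1 nor this Tgfbr1 window, and it occurs in 49.6% of all 32851 windows. GGCGC was in the Tgfbi window at -110 and -77 and, on the other strand, at -76 and 21. The Tgfb1 window held it at -245 and, on the other strand, at 20, and the Tgfbr1 window at -233 and -104 and, on the other strand, at -232. It was not in the Tgfb2 window, and 36.9% of all windows hold it. Only Tgfb2 among these 4 had a TATAAA, at -31, a motif in 13.6% of windows. GC content was 54.3% in the Tgfb2, 63.3% in the Tgfbi, 77.0% in the Tgfb1 and 74.7% in the Tgfbr1 window, and 97.6% of all windows had a lower GC content than that of Tgfb1. The SMAD palindrome GTCTAGAC (in 0.213% of all windows), the AP-1 motif TGANTCA (7.81%), the forkhead motif TGTTTAC (3.65%) and the FOXP core TATTTAT or TATTTGT (8.71%), each searched on both strands, were in 0 of the 7 windows of the 6 genes. Such matches are letters in a window and do not show binding.

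By Pearson's r on log2(RPKM + 1) over the 10 cultures, the row most like Smad7 was Id1 (r = 0.971), followed by Phlda3 (0.964) and Ripk2 (0.94). For Smad3 they were Zfp574 (0.964), Fam161a (0.963) and Nbl1 (0.955), and for Tgfbr3 Ubp1 (0.972), Fam219b (0.959) and Cmtm6 (0.958). Among the ligands, Tgfb1 was most like B4galt1 (0.921), Kdelr1 (0.916) and Ankrd12 (0.910), Tgfb2 like Gm43823 (0.945), Adnp2 (0.916) and Pik3r3 (0.912), and Tgfb3 like Cpe (0.974), Derl2 (0.967) and Tax1bp3 (0.966). Tgfbr1 was most like Zfp397 (0.962), Map3k2 (0.953) and Epm2aip1 (0.944), and Tgfbr2 like Farp1 (0.936), Prkd3 (0.926) and Usp30 (0.920). Skil was most like Arhgef2 (0.972), Agpat9 (0.954) and Clcn3 (0.953), and Tgfbi like Lipa (0.967), Acad12 (0.967) and Zbtb24 (0.966). No member was among the 3 rows most like another. These rows were the highest of all tested rows with a mean of at least 2 RPKM, so the values are descriptions, and the cultures share the table and its scaling.

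Among the genes that hold TGF-beta latent or release it, 14 of 19 were tested, and thrombospondin 1 fell in FOXP2 clones and over all clones. Thbs1, which encodes a matrix protein able to activate latent TGF-beta, was at 29.8, 28.2, 28.2 and 12.1 RPKM in FOXP2-CPED1 clones 1 to 4, at 8.20, 17.2, 14.3 and 3.63 RPKM in FOXP2 clones 1 to 4, and at 179.5 RPKM in vector and 160.2 RPKM in parental cells. It was far below both controls in every clone, where 6.38% of all rows were below both. The log2 fold change was -2.82 ± 0.52 (SE) in FOXP2-CPED1 clones (limma adjusted p = 0.0670) and -4.03 ± 0.52 in FOXP2 clones (limma adjusted p = 0.0167), and the difference between the constructs was not called (limma adjusted p = 1.0). Over all 8 clones it was -3.43 ± 0.47 (SE, limma adjusted p = 0.0134). The call rests on both controls: limma's adjusted p over all clones was 0.2 without the parental and 0.270 without the vector culture, and 0.177 and 0.256 in FOXP2 clones alone. In FOXP2-CPED1 clones the adjusted p was 0.0199 without FOXP2 clone 4. The other 13 latency genes were not past the threshold in the comparison of all clones, 9 of 14 were negative, and the list's median was -0.19 beside 0.010 over all rows. Integrin beta 3 (Itgb3) and latent TGF-beta binding protein 1 (Ltbp1) had the next smallest p, with log2 fold changes over all clones of -0.57 ± 0.24 (limma adjusted p = 0.514) and -0.78 ± 0.40 (limma adjusted p = 0.608). With library weights limma called 4 of the 14 over all clones, with Thbs1, Itgb3 and Ltbp1 lower and Itgb8 higher, beside 14.3% of all rows.

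Of 23 other ligands of the superfamily, 5 had a row of their own and 3 met the filter, and 0 of these passed. Inhba, for the activin beta A chain, was at 5.70, 6.74, 4.89 and 17.8 RPKM in FOXP2-CPED1 clones 1 to 4, at 5.97, 11.7, 3.99 and 10.4 RPKM in FOXP2 clones 1 to 4, and at 35.3 RPKM in vector and 32.8 RPKM in parental cells. All 8 clones were below both controls, as were 6.38% of all rows. The log2 fold change was -2.03 ± 0.44 (SE) over all clones, with limma adjusted p = 0.0974. That p became 0.0194 without FOXP2-CPED1 clone 4 and 0.000121 with library weights. Among the 18 alternatives for all clones, Inhba passed only under these, and its fold change ran from -2.30 to -1.91. Gdf11 and Inha, for an activin-like ligand and the inhibin alpha chain, had log2 differences of 0.17 ± 0.37 and 0.11 ± 0.31 (SE).

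The other receptors and SMADs gave no call without library weights. With weights limma called 1 of 8 receptors, Bmpr1a (adjusted p = 0.0485), and 1 of 6 other SMADs, Smad2 (adjusted p = 0.0416), over all clones. Both were higher, and 14.3% of all rows were called there. In FOXP2 clones it called Acvr2a and Bmpr1a, beside 16.3% of all rows. Of 8 tested receptors and co-receptors 0 passed in any comparison, with a median log2 fold change of 0.005 over all clones, beside 0.010 over all rows. Bmpr1a, a BMP type I receptor, differed by 0.33 ± 0.19 (SE, limma adjusted p = 0.671), the BMP co-receptor Rgma by -0.27 ± 0.16 (limma adjusted p = 0.677) and the type I receptor Acvr1 by -0.17 ± 0.15 (limma adjusted p = 0.799). The 6 other SMADs were all tested, with 0 past the threshold. Smad6, the inhibitory SMAD of the BMP branch, lay below both controls in all 8 clones, as did Smad7 and 6.38% of all rows. FOXP2 clone 2 was the lowest of the clones for Smad6 (4.61 RPKM) but the highest for Smad7 (28.6 RPKM). Smad6 averaged 8.52 ± 2.61 RPKM in FOXP2-CPED1 clones (SD, n = 4), 6.92 ± 2.90 RPKM in FOXP2 clones (SD, n = 4) and 14.4 ± 1.36 RPKM in the controls (SD, n = 2). Its log2 fold change over all clones was -0.88 ± 0.30 (SE, limma adjusted p = 0.367). Smad2, the partner of Smad3 in the TGF-beta branch, had a log2 difference of 0.21 ± 0.12 (limma adjusted p = 0.647). It was above both controls in all 8 clones, where 11.8% of all rows lay wholly above or wholly below the controls. The shared Smad4 differed by -0.13 ± 0.15 (limma adjusted p = 0.852).

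Of 10 tested secreted antagonists and 22 tested intracellular regulators, 0 passed in any comparison. The antagonists had a median log2 fold change of -0.18 over all clones and the regulators one of 0.047, beside 0.010 over all rows. Nbl1, Chrd and Fstl1, antagonists or binders of BMPs and activins, differed by -0.84 ± 0.54, -0.36 ± 0.29 and -0.27 ± 0.35 (log2, SE, limma adjusted p from 0.713 to 0.868). Tgif1, a SMAD corepressor, was at 29.0, 32.2, 33.5 and 34.8 RPKM in FOXP2-CPED1 clones 1 to 4, at 41.4, 39.5, 36.3 and 54.1 RPKM in FOXP2 clones 1 to 4, and at 48.4 RPKM in vector and 49.2 RPKM in parental cells. Here the 2 constructs did not overlap, as was so for 1.37% of all rows. FOXP2-CPED1 was lower by a log2 fold change of -0.38 ± 0.14 (SE), but limma's adjusted p was 1.0. Map3k7, for the kinase TAK1, differed by 0.29 ± 0.14 over all clones and the corepressor gene Ski by -0.23 ± 0.12, with limma adjusted p = 0.576 and 0.592. With library weights limma called 2 of the 22 regulators over all clones, Map3k7 higher and Tgif1 lower, beside 14.3% of all rows. Of the 10 antagonists it called 0 over all clones and 1, Nbl1, in FOXP2 clones, beside 16.3% of all rows in FOXP2 clones.

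In a list of 26 tested genes that TGF-beta is known to induce in fibroblasts, 1 fell and 25 did not pass in each comparison with control. It was Tgfb1i1, for Hic-5, a focal adhesion adaptor and nuclear receptor coactivator. Its row joins the identifiers ENSMUSG00000030782 and ENSMUSG00000108631 under that symbol, so its values cover both. Tgfb1i1 was at 29.8, 31.9, 30.8 and 32.6 RPKM in FOXP2-CPED1 clones 1 to 4, at 29.2, 26.2, 29.3 and 24.7 RPKM in FOXP2 clones 1 to 4, and at 67.6 RPKM in vector and 72.1 RPKM in parental cells. The clones were tightly grouped and less than the controls by more than their own spread. The constructs did not overlap, as was so for 1.37% of all rows. FOXP2-CPED1 clones were higher by a log2 fold change of 0.19 ± 0.10 (SE), which was not called. Its log2 fold change was -1.13 ± 0.12 (SE) in FOXP2-CPED1 clones (limma adjusted p = 0.00594) and -1.33 ± 0.12 in FOXP2 clones (limma adjusted p = 0.00262). Over all clones it was -1.23 ± 0.11 (SE, limma adjusted p = 0.00142), and this p became 0.0654 without the parental and 0.0548 without the vector culture. Without parental cells the adjusted p was 0.133 in FOXP2-CPED1 and 0.065 in FOXP2 clones, and without vector cells it was 0.124 in FOXP2-CPED1 and 0.0661 in FOXP2 clones.

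The list's median log2 fold change was -0.33 in FOXP2-CPED1 clones, -0.35 in FOXP2 clones and -0.32 over all clones, with 19 of 26 genes negative over all clones, where 48.4% of all rows were. Of the 26, 7 were below both controls in all 8 clones, beside 6.38% of all rows. The list was chosen with earlier results of these data known and was not tested as a set, so these counts are descriptions. In FOXP2-CPED1 clones 9 lay wholly below and 2 wholly above the controls, beside 13.3% and 12.2% of all rows. In FOXP2 clones 9 lay wholly below, beside 10.4% of all rows, and 0 wholly above. With library weights limma called 10 of the 26 over all clones, 9 lower and 1 higher, beside 14.3% of all rows. In FOXP2 clones the weighted fit called 10, with 8 lower and 2 higher, beside 16.3% of all rows. Ctgf, for connective tissue growth factor, was at 11.4, 26.6, 9.09 and 70.8 RPKM in FOXP2-CPED1 clones 1 to 4, at 34.5, 65.0, 9.74 and 53.4 RPKM in FOXP2 clones 1 to 4, and at 373.9 RPKM in vector and 350.0 RPKM in parental cells. Every clone was well below both controls, but the clones differed so much among themselves that limma's adjusted p over all clones was 0.0800 for a log2 fold change of -3.71 ± 0.76 (SE). That adjusted p became 0.0254 without FOXP2-CPED1 clone 4, the clone with the highest Ctgf. Among the 18 alternatives for all clones, Ctgf passed only under this and with library weights. Lmcd1, for a LIM and cysteine-rich domain protein, was at 0.504, 0.418, 0.621 and 0.586 RPKM in FOXP2-CPED1 clones 1 to 4, and at 1.19, 0.641 and 1.66 RPKM in FOXP2 clones 1, 2 and 4 and listed at 0 in clone 3. In vector it was at 3.30 RPKM and in parental cells at 3.99 RPKM, above all clones, with limma adjusted p = 0.0802 over all clones, 0.0275 without FOXP2 clone 3 and 0.0464 without FOXP2 clone 4. Among the 17 alternatives for all clones, Lmcd1 passed only under these and with library weights. Ctgf and Tgfb1i1 are also known to respond to signals other than TGF-beta.

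**Figure D4:**
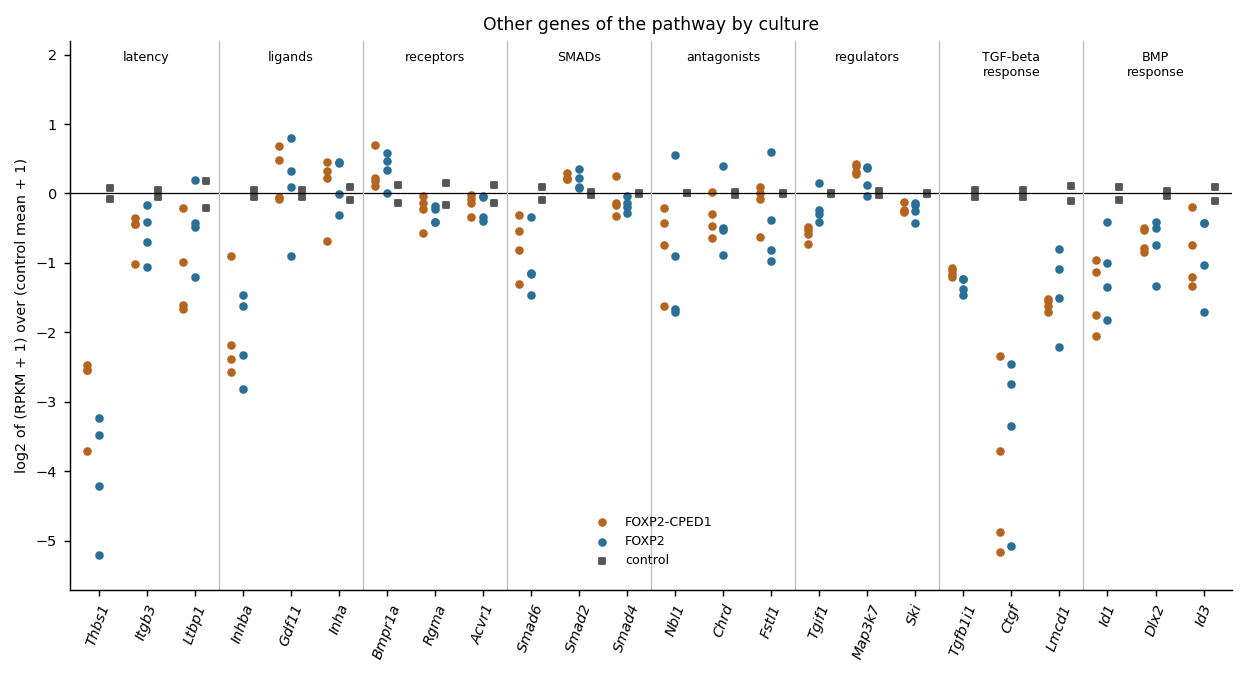
Log2 of (RPKM + 1) over (control mean + 1) in each culture for the other named genes of the pathway, with FOXP2-CPED1 clones in orange, FOXP2 clones in blue and controls as grey squares, grouped by list. Thbs1, Itgb3, Inhba, Smad6, Ski, Tgfb1i1, Ctgf, Lmcd1, Id1, Dlx2 and Id3 lie below both controls in all 8 clones, as 6.38% of all rows did. Smad2 lies above both controls in all 8 clones, where 11.8% of all rows lay wholly above or wholly below the controls. Of these named genes only Tgfb1i1 and Thbs1 passed the threshold. The genes shown were picked from each list as past the threshold or by the smallest p over all clones.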

How the data were processed

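Total RNA of 10 NIH3T3 cultures (Trizol, NEBNext Ultra RNA libraries, per the labels' protocols) was sequenced on an Illumina instrument. Per the file headers, the authors deposited RPKM values in 1 table, and each library has a column. HISAT2, StringTie and the mm9 genome are named per the submitters' processing notes, while their versions, roles, the annotation, strand setting and filters are not given in the sources here. Without a strand setting, reads of overlapping or antisense genes cannot be told apart. Of 18430 rows, 3581 name no gene (3.37 to 4.54% of a library's summed RPKM) and were left out, 976 join several genes, and for 572 symbols with several rows the row with the highest mean was used. Values of exactly 0 can be failed estimates.

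Values were taken as log2(RPKM + 1), which understates changes of low genes. The 12842 rows with a gene name and 1 RPKM or more in at least 2 libraries were fitted with limma 3.58.1 in R 4.3.3, with groups control, FOXP2 and FOXP2-CPED1, all 10 libraries, empirical Bayes with a trend, two-sided tests, Benjamini-Hochberg adjustment over all rows and a threshold of 0.05. Errors of levels are SDs and errors of fold changes are model SEs. Single genes and correlations were also tested by exact permutation over cultures. Since each clone gave 1 library, the spread behind the p-values is that between cultures. Relative depth was read from steps among values under 0.3 RPKM, no counting interval can be given, and the scripts were tested on simulated data. The named genes are the 10 members, list genes past the threshold, the 3 of each list with the smallest p over all clones, and for each member the 3 rows most like it. Members and lists were chosen with earlier results of these data known, and no list was tested as a set. Promoter windows come from RefSeq (GRCm38.p6), and for Tgfb3, Tgfbr3, Skil and Smad7 none was used here. Alternatives are given at the end.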

Additional observations from a re-analysis of the deposited data

Results flagged for a closer look

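Levels in the groups of 4 clones were examined for a library far from the other 3, for the 10 genes and for 24 other named genes of the pathway. Of 68 groups 4 stood out, and 0 of the 20 groups of the 10 genes did, while chance flags about 1 in 20 groups. All 4 were in FOXP2-CPED1 clones. Thbs1 was 12.1 RPKM in FOXP2-CPED1 clone 4, below 28.2 to 29.8 RPKM in the other 3. Inhba was 17.8 RPKM in the same clone, above 4.89 to 6.74 RPKM in the others. Itgb3 was 4.01 RPKM in FOXP2-CPED1 clone 1, below 6.49 to 6.96 RPKM in the others. Ski was 29.1 RPKM in FOXP2-CPED1 clone 2, above 26.4 to 26.8 RPKM in the others.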

How the results depend on the processing

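The control had 2 libraries, and counts of genes past the limma threshold moved with each of them. Between FOXP2-CPED1 clones and control 45 genes passed, with 28 at a pseudocount of 0.1 RPKM, 929 with library weights, and 0 to 57 with 1 library left out (0 without parental, 2 without vector cells, 13, 14 and 17 without FOXP2-CPED1 clones 1, 2 and 3). Between FOXP2 clones and control 56 passed, with 37 at a pseudocount of 0.1 RPKM, 2095 with library weights, 9 with only these groups fitted, 23 without the 3 libraries whose mitochondrial rows are listed at 0, and 2 to 64 with 1 library left out (2 without parental, 3 without vector cells, 22 and 25 without FOXP2 clones 1 and 4, 33 and 29 without FOXP2-CPED1 clones 1 and 3). Over all clones 69 passed, with 1842 under library weights and 2 to 82 with 1 library left out (2 without parental, 3 without vector cells, 43 and 42 without FOXP2-CPED1 clones 1 and 3). Between the constructs 0 passed, with 4 under library weights, 0 to 1 with 1 library left out, and 0 with clone numbers as a replicate block. Same-numbered clones correlated at -0.0357, -0.24, 0.281 and 0.166 in their deviations, and differently numbered ones at -0.428 to 0.393. No pairing by number was seen, though so few clones cannot exclude one. Of the 10 genes 0 passed in each comparison, against 1 (FOXP2-CPED1), 3 (FOXP2) and 2 (all clones) with library weights, and 0 to 0 with 1 library left out. Of 752 values of the 10 genes under alternatives, 714 kept their sign and side of the threshold, 6 passed it, all with library weights, and 32 changed sign without passing. Limma's adjusted p with weights in FOXP2 clones was 0.0272 for Tgfb1. Thbs1 in FOXP2-CPED1 clones passed with only these groups fitted (limma adjusted p = 0.0353), while in FOXP2 clones that fit gave 0.0920 for Thbs1 and 0.0538 for Tgfb1i1. The causes were not tested. Tgfb2 and Tgfbr1 have no value under a filter on a mean of 5 RPKM, and fitting only the groups compared gives no separate fit for all clones.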

Other observations

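Genes that bone morphogenetic proteins (BMPs) induce through SMAD1 and SMAD5 gave no call without library weights. Of 10 such genes 6 were tested, 0 passed in any comparison (an unadjusted limma p under 0.05 was reached by 2 in FOXP2-CPED1 clones, 3 in FOXP2 clones and 3 over all clones, beside 7.28, 8.52 and 9.1% of all rows). Over all clones 5 of 6 were negative, beside 48.4% of all rows, limma with library weights called 2 (Id1 and Dlx2, both lower), beside 14.3% of all rows, and the median log2 fold change over all clones was -0.68 beside 0.010 over all rows. Id1, for an inhibitor of basic helix-loop-helix factors, was at 62.9, 40.8, 33.0 and 71.1 RPKM in FOXP2-CPED1 clones 1 to 4, at 69.0, 104.6, 54.0 and 38.8 RPKM in FOXP2 clones 1 to 4, and at 130.1 RPKM in vector and 149.0 RPKM in parental cells. All 8 clones were below both controls, as were 6.38% of all rows. The log2 fold change of Id1 over all clones was -1.31 ± 0.35 (SE, limma adjusted p = 0.213). Its relative Id3 averaged 83.4 ± 31.6 RPKM in FOXP2-CPED1 clones (SD, n = 4), 82.7 ± 31.3 RPKM in FOXP2 clones (SD, n = 4) and 145.5 ± 14.6 RPKM in the controls (SD, n = 2), with limma adjusted p = 0.500 over all clones. The homeobox gene Dlx2 averaged 15.7 ± 2.04 RPKM in FOXP2-CPED1 clones (SD, n = 4), 15.1 ± 4.15 RPKM in FOXP2 clones (SD, n = 4) and 25.2 ± 0.752 RPKM in the controls (SD, n = 2), with limma adjusted p = 0.310 over all clones.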
